A study of Homo sapiens with 12 samples.

Results

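miR-221 and miR-222 are a pair of neighbouring microRNAs (miRNAs) on the X chromosome, followed here through vesicles of 6 cancer cell lines. Of the 1636 mature miRNAs in the count table, 3 are described: hsa-miR-221-3p and hsa-miR-221-5p, the 2 arms of the miR-221 hairpin, and hsa-miR-222-3p, the main arm of the miR-222 hairpin. They were chosen by name, across all lines, together with the ratio of the neighbours and the ratio of the miR-221 arms. The species prefix is left out from here on. The remaining arm, miR-222-5p, was counted too and is given beside them. Extracellular vesicles, membrane-bound particles that cells shed, came from cultures of SW1116, MDST8, RCM-1, HT55, Car-1 and Hutu80, all grown in the same serum-containing medium and all labelled as colorectal cancer, although Hutu80 is catalogued as a line from the duodenum. Each line comes from 1 tumour and gave 2 small RNA libraries, 12 in all. The study sets 3 lines of consensus molecular subtype 2 against 3 of subtype 4, but no label used here ties a line to a subtype, so lines were compared and subtypes were not. Whether a line's 2 libraries stand for separate cultures is not stated in the labels. P-values therefore reflect library-to-library spread, possibly technical.

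A miRNA hairpin is cut by Drosha and Dicer into a short duplex, and an Argonaute protein usually keeps one strand and discards the other. The kept strand pairs with messenger RNAs through its seed, bases 2 to 8, and lowers their output. miR-221-3p and miR-222-3p are known for repressing the cell cycle inhibitor p27 (CDKN1B) and the receptor KIT, and they are raised in many aggressive carcinomas, where they have been linked to epithelial-mesenchymal transition. miR-221-5p is the strand that is usually discarded.

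The sequences show why the 3p arms are treated as one family. Mature sequences from RefSeq (GRCh38.p14), with the seed in capitals, are given first. The hairpins follow, with the mature arms that this RefSeq set lists in capitals. The set has no mature entry for miR-221-5p, so MIR221 has only its 3p arm in capitals.
miR-221-3p: aGCUACAUugucugcuggguuuc
miR-222-3p: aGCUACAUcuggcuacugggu
miR-222-5p: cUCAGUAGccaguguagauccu
MIR221: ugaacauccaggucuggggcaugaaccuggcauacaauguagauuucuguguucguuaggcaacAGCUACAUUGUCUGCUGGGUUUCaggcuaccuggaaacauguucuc
MIR222: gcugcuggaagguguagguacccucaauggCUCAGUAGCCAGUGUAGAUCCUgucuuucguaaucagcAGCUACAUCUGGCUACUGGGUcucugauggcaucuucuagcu
The first 8 bases of miR-221-3p and miR-222-3p are identical, and of 2370 mature human miRNA names in that RefSeq set these 2 alone have the seed GCUACAU. A messenger RNA pairs with it through AUGUAGC. Past the shared start the 3p arms diverge, with 11 of 21 positions identical in all. The run cugggu occurs in both, starting at base 15 of miR-221-3p and base 16 of miR-222-3p. miR-222-5p has another seed, UCAGUAG. miR-221-5p is named only.

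Both hairpins lie on the minus strand of chromosome X in GRCh38, MIR221 at chrX:45746157-45746266 and MIR222 at chrX:45747015-45747124, with 748 bases between them. In GENCODE release 29 both fall in an intron of a transcript of the non-coding host gene MIR222HG, which RefSeq places at chrX:45745214-45770267. A single host transcript can carry both hairpins, so the letters upstream of it (chrX:45770218-45770517, minus strand, RefSeq, from 250 bases before to 50 after the annotated start) are shown, with the CCAAT and TATAA matches in capitals.
MIR222HG promoter: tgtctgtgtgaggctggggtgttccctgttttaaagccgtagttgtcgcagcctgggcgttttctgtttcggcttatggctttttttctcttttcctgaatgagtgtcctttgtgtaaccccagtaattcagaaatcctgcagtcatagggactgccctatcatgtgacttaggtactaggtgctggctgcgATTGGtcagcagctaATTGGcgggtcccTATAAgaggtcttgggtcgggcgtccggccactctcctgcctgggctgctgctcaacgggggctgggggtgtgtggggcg
Searched on both strands, TATAA occurred once, starting 30 bases before the start, and is present in 20.4% of 35116 promoters of this length. CCAAT occurred 2 times, both on the opposite strand, starting 58 and 43 bases before the start, and is present in 34.6%. The motif of AP-1, a transcription factor known to act on this locus, is TGANTCA, which 7.71% of promoters hold and which had no match in this window.

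Total counts per library ran from 71831 to 622800, and 318 miRNAs were tested. Spearman correlations across tested miRNAs, which are not independent replicates, were 0.933 to 0.958 within lines and 0.674 to 0.925 between lines. Levels are given as CPM, the count divided by the library total scaled by a trimmed-mean (TMM) factor and set to a common depth, with the SD of a line's 2 libraries (n = 2). Differences are log2 differences ± standard error (SE). CPM is a share of each library, so fewer vesicles carrying a miRNA and fewer copies per vesicle cannot be told apart. Of the gut-epithelium markers all 9 were tested, and their summed level was 121343 ± 11814 CPM in SW1116, 148055 ± 27520 in HT55 and 130122 ± 29706 in RCM-1. It was lower in Car-1 (37910 ± 8438), Hutu80 (11796 ± 926) and MDST8 (5929 ± 1253). The label of colorectal cancer therefore covers lines with high and with low values of this sum. Most of each sum was miR-200c-3p (80071 ± 14814 CPM in SW1116, 20079 ± 8541 in Car-1), which is also counted in the miR-200 family below. Other markers ordered the lines differently, so the sum is no scale of gut identity. miR-192-5p was highest in RCM-1 (14394 ± 1662) and about as low in Car-1 (1044 ± 187) as in Hutu80 (1121 ± 141). miR-375-3p was highest in RCM-1 too (7049 ± 1337) and lower in SW1116 (1333 ± 160), but Car-1 (674 ± 111) stayed above Hutu80 (481 ± 125).

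Together the 3 members took 5.89% and 7.46% of the counts in the SW1116 libraries and 6.71% and 9.0% in those of MDST8. In the other 8 libraries they took between 2.13% (HT55 replicate 1) and 4.20% (Car-1 replicate 2). All 3 differed among the lines in edgeR's quasi-likelihood F-test with Benjamini-Hochberg adjustment. The adjusted p was 7.05e-10 for miR-221-5p, 7.25e-09 for miR-222-3p and 3.41e-08 for miR-221-3p. In that comparison 68.2% of all tested miRNAs passed 0.05, so a call by itself says little about these 3. miR-221-5p had position 25 of 318 by p-value, miR-222-3p 36 and miR-221-3p 55.

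miR-221-3p split the lines into a high pair and a low group of 4. The libraries of SW1116 had 27697 and 30210 CPM and those of MDST8 27785 and 29014 CPM. The other 8 libraries lay between 7218 CPM (Hutu80 replicate 1) and 10001 CPM (RCM-1 replicate 2). With TMM factors no library of the high pair came near the low group. In unscaled CPM SW1116 (19982 and 19406) stayed above Car-1 (13237 and 12804), but by much less. As a mean the order was SW1116 (28953 ± 1778), MDST8 (28400 ± 869), RCM-1 (9583 ± 591), HT55 (9241 ± 339), Car-1 (9025 ± 334) and Hutu80 (7614 ± 560), a range of 3.8-fold.

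**Figure D1:**
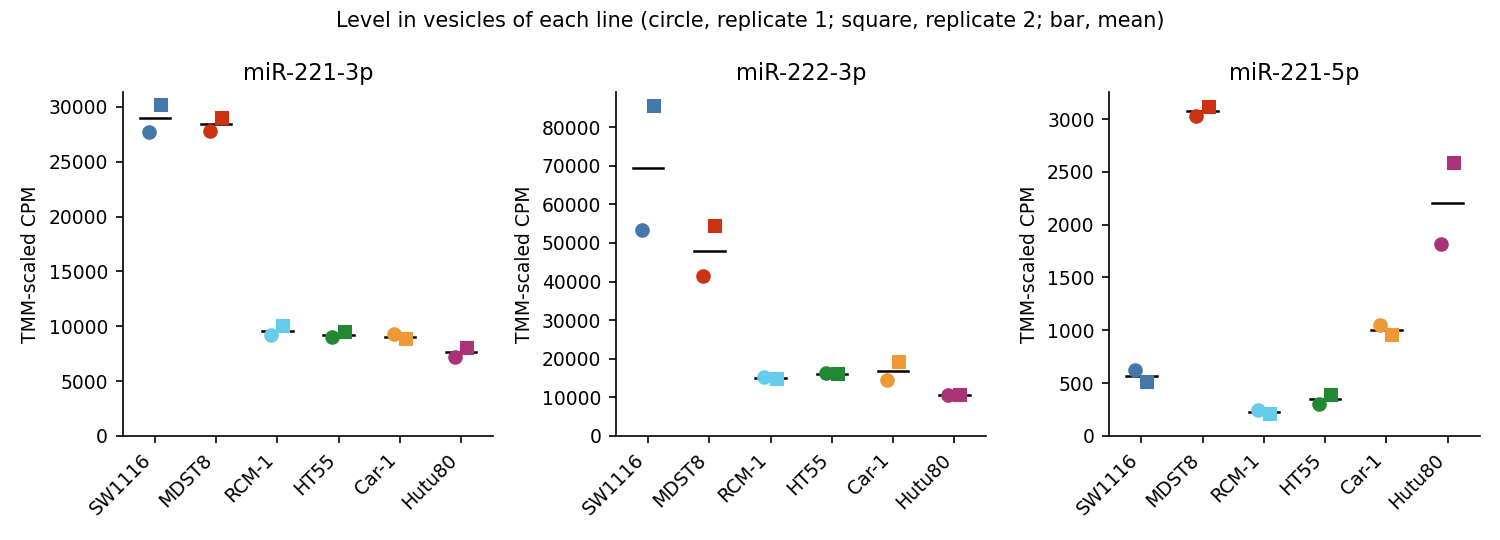
Level of the 3 members in each library, as TMM-scaled CPM on linear axes that start at 0, with the 6 lines along the x axis, replicate 1 as circles, replicate 2 as squares and the line mean as a bar. miR-221-3p and miR-222-3p are high in SW1116 and MDST8, while miR-221-5p is high in MDST8 and Hutu80 and low in SW1116.

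In the order of miR-221-3p levels, the step between MDST8 and RCM-1 was the only one of the 5 neighbouring steps to pass (1.57 ± 0.26 higher in MDST8, SE, edgeR adjusted p = 2.16e-05). Among all 15 pairs of lines 8 passed, and these were SW1116 and MDST8, each against the other 4 lines. Over the 15 pairs the share of all tested miRNAs that passed had a median of 39.3%. With SW1116 it was 39.3% against Car-1, 20.4% against HT55, 44% against Hutu80, 13.5% against RCM-1 and 34.9% against MDST8. With MDST8 it was 41.5% against Car-1, 39.6% against HT55, 43.1% against Hutu80 and 42.1% against RCM-1. Among the other lines it was 28.9% for HT55 with Car-1, 30.8% for HT55 with Hutu80, 13.5% for HT55 with RCM-1, 18.2% for Car-1 with Hutu80, 42.1% for Car-1 with RCM-1 and 41.2% for Hutu80 with RCM-1. SW1116 and MDST8 differed from each other by 0.03 ± 0.25 (adjusted p = 0.959), and the 4 low lines differed by at most 0.33 ± 0.26 (Hutu80 lower than RCM-1, adjusted p = 0.312). Differences as large as these standard errors cannot be told from none within each set.

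Set against the mean of the other 5 lines, miR-221-3p was 1.38 ± 0.18 higher in SW1116 (edgeR adjusted p = 1.34e-06, where 17.6% of tested miRNAs passed as higher and 16.7% as lower) and 1.34 ± 0.18 higher in MDST8 (9.9e-07, where 22% passed as higher and 22.3% as lower). It fell by 0.94 ± 0.21 in Hutu80 (0.000951, where 23% passed as higher and 16.7% as lower). These 3 calls passed in every fit with a library left out. It fell by 0.64 ± 0.21 in Car-1 (0.0167, where 21.1% passed as higher and 13.5% as lower), a call that ended without Car-1 replicate 1 (0.107) and with no filter on low counts (0.194). With library totals as the only scaling, the Car-1 difference was -0.01 (0.97). The calls in HT55 (fell by 0.60 ± 0.21, 0.0352, where 13.8% passed as higher and 10.4% as lower) and RCM-1 (fell by 0.54 ± 0.21, 0.0427, where 21.1% passed as higher and 14.8% as lower) were close to the threshold. Leaving out a library ended the HT55 call in 9 of 12 fits (adjusted p 0.05 to 0.37), all but those without Car-1 replicate 1, Car-1 replicate 2 or SW1116 replicate 1. It ended the RCM-1 call in 9 of 12 fits (0.0517 to 0.331), all but those without Car-1 replicate 1, Car-1 replicate 2 or HT55 replicate 2. With no filter on low counts neither passed (0.105 in HT55, 0.059 in RCM-1), and with a filter at 100 CPM the HT55 call ended (0.0528).

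miR-222-3p, the more abundant neighbour, showed the same split. SW1116 libraries had 53263 and 85373 CPM, and MDST8 libraries had 41305 and 54334 CPM. The remaining 8 libraries lay between 10496 CPM (Hutu80 replicate 2) and 19118 CPM (Car-1 replicate 2). With TMM factors the high pair again stood clear of the low group, and the 2 SW1116 libraries differed most from each other. In unscaled CPM SW1116 (38428 and 54842) and MDST8 (38414 and 56576) were closer to Car-1 (20865 and 27852), though still above it. Line means were 69318 ± 22705 in SW1116, 47819 ± 9213 in MDST8, 16859 ± 3195 in Car-1, 16086 ± 213 in HT55, 14873 ± 348 in RCM-1 and 10585 ± 126 in Hutu80, a range of 6.55-fold.

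The step between MDST8 and Car-1 passed (1.5 ± 0.29 higher in MDST8, edgeR adjusted p = 0.000205), and the other 4 neighbouring steps did not (0.152 for SW1116 against MDST8, 0.172 to 0.896 among the low lines). Again 8 of 15 pairs passed in the main fit, the same 8 as for miR-221-3p. With library totals, with no filter, with a filter at 100 CPM and in limma-trend 11 passed, and in DESeq2 9. Pairs beyond those 8 therefore passed under other settings. Against the other lines miR-222-3p was 1.92 ± 0.19 higher in SW1116 (adjusted p = 2.56e-08) and 1.28 ± 0.20 higher in MDST8 (8.51e-06), and it fell by 1.33 ± 0.24 in Hutu80 (8.46e-05). In RCM-1 it fell by 0.74 ± 0.23 (0.0127), a call that ended without RCM-1 replicate 1 (0.129) or 2 (0.121). The differences in HT55 (-0.61 ± 0.23, 0.054) and Car-1 (-0.52 ± 0.23, 0.0729) did not pass, but each passed with some libraries left out: in HT55 without Car-1 replicate 1 (0.0152), Car-1 replicate 2 (0.0414) or SW1116 replicate 1 (0.0354), and in Car-1 without Car-1 replicate 2 (0.00498) or SW1116 replicate 1 (0.0433). The HT55 difference passed in limma-trend (0.0115) and DESeq2 (0.0238) too, and with library totals as the only scaling (0.0143).

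The choice of scaling matters for the 3p arms in the order within the high pair and in Car-1. It also changes how far SW1116 stands above the low group. With library totals in place of TMM factors, the median difference of all tested miRNAs moved by 0.62 in Car-1, 0.35 in Hutu80, -0.17 in RCM-1 and -0.66 in SW1116, and with RLE size factors by 0.12 in MDST8. As an unscaled share of counts, miR-221-3p was 1.97% ± 0.04 in SW1116 and 2.80% ± 0.31 in MDST8, so MDST8 then stood first. Scaling shifts all miRNAs of a library alike, so relative to the median of all tested miRNAs the members hardly moved by construction. Values relative to that median are therefore no check on the scaling. miR-221-3p was 1.59 above that median in SW1116 with TMM factors and 1.58 with library totals, and 1.66 and 1.64 above it in MDST8. In its own units the SW1116 difference was 0.71 for miR-221-3p with library totals (edgeR adjusted p = 0.00336) and 1.24 for miR-222-3p (6.47e-06). In Car-1 miR-221-3p was, relative to the median, at -0.66 with TMM factors and -0.65 with library totals.

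**Figure D2:**
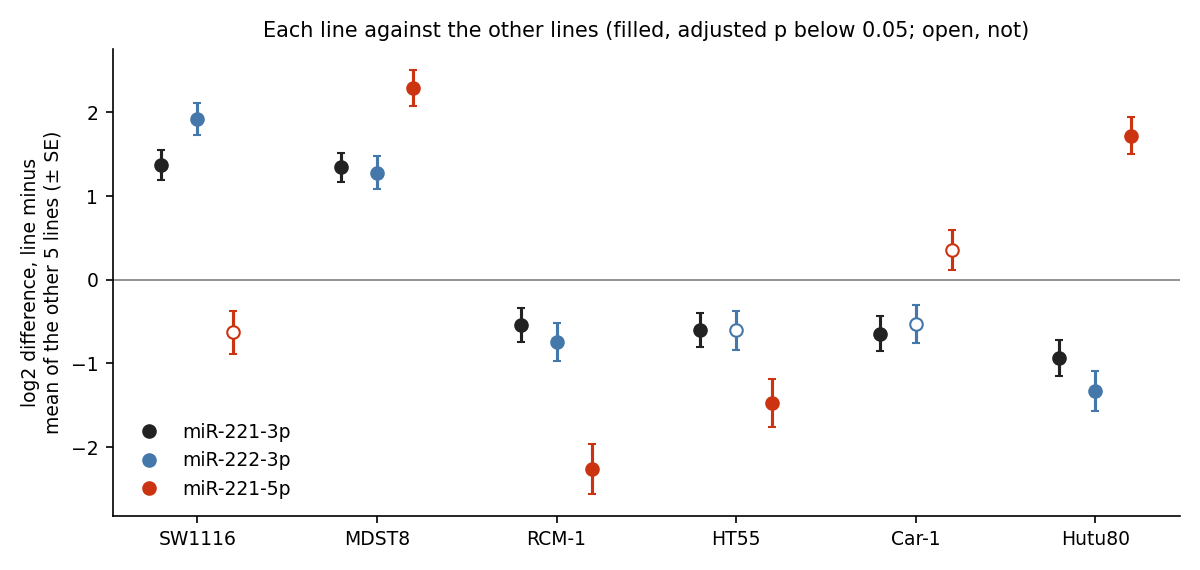
Log2 difference of each line from the mean of the other 5 lines, with SE bars, for the 3 members; filled points passed an adjusted p of 0.05 and open points did not. Both 3p arms are called higher in SW1116 and MDST8 and lower in Hutu80 and RCM-1, while miR-221-5p is called higher in MDST8 and Hutu80 and lower in RCM-1 and HT55.

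The discarded strand, miR-221-5p, did not follow its partner. It had 3034 and 3111 CPM in MDST8 and 1821 and 2586 CPM in Hutu80, against 241 and 203 CPM in RCM-1. Between these ends lay Car-1 with 1053 and 952 CPM, SW1116 with 625 and 512 CPM, and HT55 with 303 and 389 CPM. With TMM factors no 2 lines overlapped in their libraries. In unscaled CPM MDST8 (2822 and 3240) overlapped Hutu80 (2325 and 3074), and SW1116 (451 and 329) overlapped HT55 (252 and 406). Means were 3073 ± 54.6 in MDST8, 2204 ± 541 in Hutu80, 1002 ± 71.6 in Car-1, 569 ± 79.9 in SW1116, 346 ± 61.0 in HT55 and 222.2 ± 26.7 in RCM-1, a range of 13.8-fold. Raw counts behind the lowest values were 35 in HT55 replicate 1 and 37 in RCM-1 replicate 1, so counting error is larger there.

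For miR-221-5p 12 of 15 pairs of lines passed, all but MDST8 with Hutu80, SW1116 with HT55, and HT55 with RCM-1. Of the neighbouring steps, Hutu80 stood 1.14 ± 0.32 above Car-1 (edgeR adjusted p = 0.0114) and Car-1 0.82 ± 0.32 above SW1116 (0.0436). The Hutu80 step lost its call without Hutu80 replicate 2 (0.327), Car-1 replicate 1 (0.142) or 2 (0.138) or HT55 replicate 2 (0.104). It also lost it with library totals (0.0641), with no filter on low counts (0.739), with a filter at 100 CPM (0.0714) and in limma-trend (0.0763). The Car-1 step lost it in all 12 fits with a library left out (0.0597 to 0.324) and with no filter on low counts (0.246). MDST8 stood 0.48 ± 0.31 above Hutu80, which did not pass (0.23).

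Against the other lines miR-221-5p was 2.29 ± 0.21 higher in MDST8 (edgeR adjusted p = 1.75e-09) and 1.72 ± 0.22 higher in Hutu80 (7.19e-07). It fell by 2.27 ± 0.30 in RCM-1 (2.09e-06) and by 1.47 ± 0.28 in HT55 (0.000259). These 4 calls passed in every fit with a library left out. The differences in Car-1 (0.35 ± 0.24, 0.276) and SW1116 (-0.63 ± 0.26, 0.0606) did not pass. Both passed with library totals as the only scaling, at 0.98 in Car-1 (0.00169) and -1.29 in SW1116 (0.000711), and both passed in limma-trend (0.00613 in Car-1, 0.000717 in SW1116). The SW1116 difference passed in DESeq2 as well (0.0471). In Hutu80 miR-221-5p was thus called higher and miR-221-3p lower in the same libraries.

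The ratio of the arms within a library is not changed by the scaling of that library, so it was tested on its own. The 5p arm made up 20.1% of the miR-221 counts in Hutu80 replicate 1 (95% Clopper-Pearson interval 17.5% to 23.0%) and 24.4% in replicate 2 (22.1% to 26.9%). In MDST8 it made up 9.84% (9.26% to 10.5%) and 9.69% (9.12% to 10.3%), and in Car-1 10.2% (9.06% to 11.4%) and 9.77% (8.49% to 11.2%). These intervals cover counting error only. Hutu80 stood alone at the top, and the libraries of MDST8 and Car-1 overlapped each other below it.

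The other 3 lines had far less of the 5p arm. It made up 3.26% (2.28% to 4.50%) and 3.94% (3.16% to 4.86%) of miR-221 counts in HT55, 2.56% (1.81% to 3.51%) and 1.99% (1.55% to 2.51%) in RCM-1, and 2.21% (1.96% to 2.48%) and 1.67% (1.42% to 1.94%) in SW1116. SW1116 and RCM-1 overlapped, and no library of these 3 lines reached those of MDST8, Car-1 or Hutu80.

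**Figure D3:**
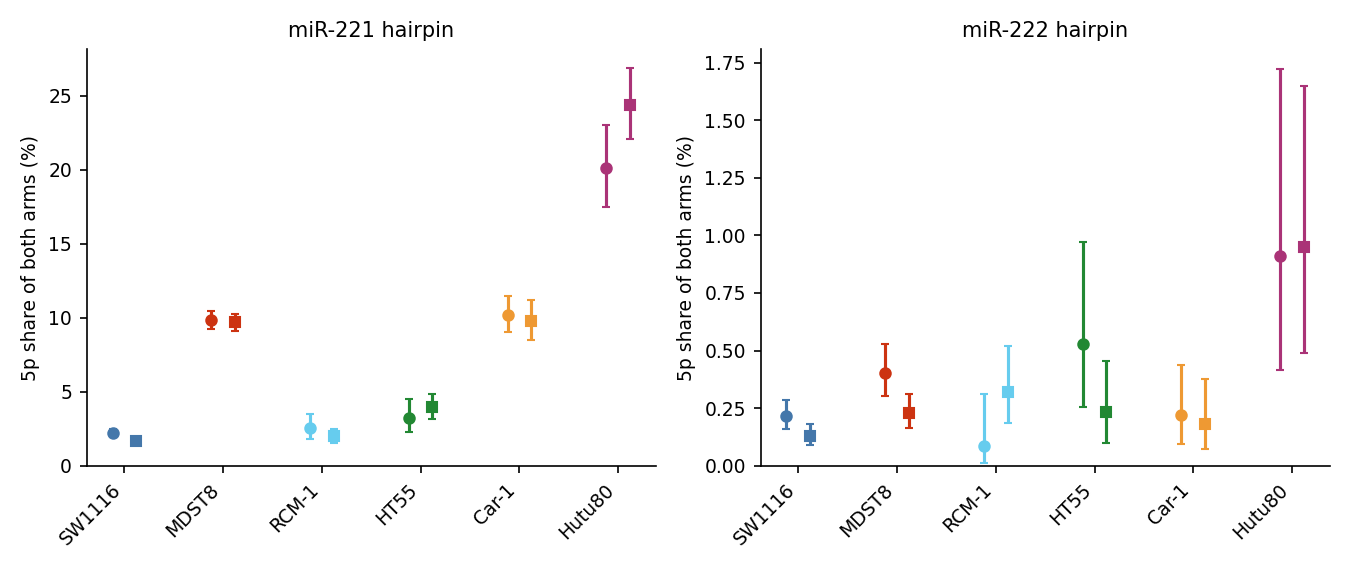
Share of each hairpin's counts on the 5p arm, in percent on linear axes of different height, for miR-221 (left) and miR-222 (right), with 95% Clopper-Pearson intervals; circles are replicate 1 and squares replicate 2. For miR-221 the Hutu80 libraries lie above 20%, MDST8 and Car-1 near 10%, and the other lines below 4%.

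Expressed as a ratio, miR-221-3p exceeded miR-221-5p by 51.6 ± 10.4-fold in SW1116, 43.6 ± 7.89 in RCM-1, 27.0 ± 3.79 in HT55, 9.24 ± 0.12 in MDST8, 9.02 ± 0.31 in Car-1 and 3.53 ± 0.61 in Hutu80 (SD, n = 2). From Hutu80 to SW1116 the mean log2 ratio spanned 3.87, or 14.6-fold, while the 2 libraries of a line differed by 0.03 to 0.41. The lines differed by an exact permutation test over all 10395 ways to pair the 12 libraries (p = 0.000481, adjusted p = 0.000962 over the 2 ratios tested, two-sided by construction, smallest possible p 9.62e-05). Every alternative passed as well, with adjusted p up to 0.00327. SW1116 and MDST8, alike in miR-221-3p, were therefore on opposite sides for the ratio of its arms.

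Depth moved with this ratio at the ends, since Hutu80 had the shallowest libraries and SW1116 the deepest, and its part in the ratio was not tested. Among libraries of similar depth, picked after the values were seen, Car-1 replicate 1, with 172774 counts, had 10.2% of miR-221 on the 5p arm, and RCM-1 replicate 1, with 172320 counts, had 2.56%. MDST8 replicate 1, with 339853 counts, had 9.84%, and RCM-1 replicate 2, with 372549 counts, had 1.99%. These pairs include neither Hutu80 nor SW1116, so at the ends depth and line cannot be told apart.

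miR-222-5p was too rare for the same test, which needs 10 counts in every library. It had 9 and 12 counts in Hutu80, 53 and 40 in MDST8, 8 and 7 in Car-1, 10 and 8 in HT55, 52 and 36 in SW1116, and 2 and 16 in RCM-1. With the libraries of a line pooled, the 5p arm made up 0.932% of miR-222 counts in Hutu80 (95% Clopper-Pearson interval 0.578% to 1.42%), 0.338% in HT55 (0.2% to 0.533%), 0.305% in MDST8 (0.246% to 0.373%), 0.246% in RCM-1 (0.146% to 0.389%), 0.201% in Car-1 (0.113% to 0.332%) and 0.171% in SW1116 (0.137% to 0.211%). Hutu80 was again the highest, and its pooled interval did not overlap that of any other line. Pooled intervals cover counting error only and leave out the spread between libraries. By library Hutu80 had the highest shares, 0.911% (0.417% to 1.72%) and 0.948% (0.491% to 1.65%). Their intervals overlapped those of other libraries, among them HT55 replicate 1 (0.530%, 0.255% to 0.973%). The pooled intervals of SW1116, Car-1 and RCM-1 overlapped, and the lowest single library was RCM-1 replicate 1 (0.0861%). As a level, miR-222-5p was 1.29 ± 0.46 higher in MDST8 than in the other lines (edgeR adjusted p = 0.0241) and passed in no other line.

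The ratio of the neighbours was much steadier. For each count of miR-221-3p there were 1.92 and 2.83 counts of miR-222-3p in SW1116, 1.58 and 2.18 in Car-1, 1.80 and 1.68 in HT55, 1.49 and 1.87 in MDST8, 1.65 and 1.46 in RCM-1, and 1.48 and 1.31 in Hutu80. miR-222-3p was thus counted more often in all 12 libraries. Sequencing can favour one miRNA over another at ligation, so the ratio is of counts and not of molecules in the vesicle. Values of the lines interleaved, and only SW1116 replicate 2 stood above every other library.

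**Figure D4:**
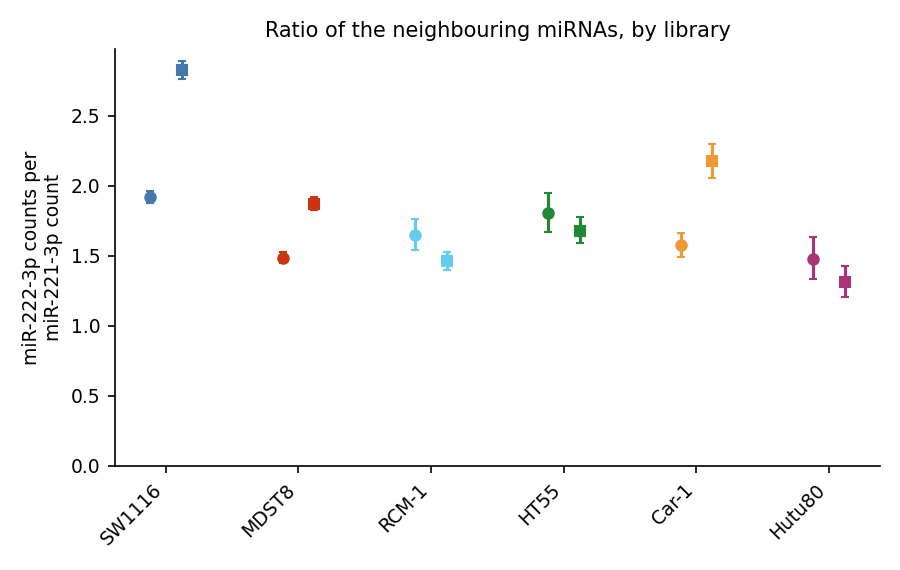
Counts of miR-222-3p per count of miR-221-3p in each library, on a linear axis that starts at 0, with 95% Clopper-Pearson intervals; circles are replicate 1 and squares replicate 2. The highest value is 2.83, in SW1116 replicate 2, and the lowest 1.31, in Hutu80 replicate 2, and the 2 libraries of SW1116, Car-1, MDST8 and RCM-1 have intervals that do not overlap.

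Line means of the log2 ratio ran from 0.48 in Hutu80 to 1.22 in SW1116, a span of 0.74, or 1.67-fold, against gaps of 0.10 to 0.56 between the 2 libraries of a line. The exact permutation test found no difference among lines beyond that spread (p = 0.174, adjusted p = 0.174). With a library left out the adjusted p ran from 0.0979 (without SW1116 replicate 1) to 0.411 (without SW1116 replicate 2). A p above the threshold does not show that the ratio is equal in all lines.

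Set beside other miRNAs, the neighbour ratio was among the steadier ones and the arm ratio among the most variable. Over 18 pairs of cluster neighbours, the SD over lines of the mean log2 ratio was 0.25 for miR-222-3p over miR-221-3p, with 2 pairs below it. The smallest was 0.19 for miR-192-5p over miR-194-5p and the largest 0.60 for miR-23a-3p over miR-27a-3p. Some of these, among them miR-194-5p, miR-24-3p, miR-16-5p, miR-29b-3p and miR-365a-3p, can come from a second hairpin elsewhere, which a pair at 1 locus does not share. The lowest count in a library was 662 for miR-222-3p over miR-221-3p, but as low as 0 for others (miR-224-5p over miR-452-5p). Low counts can widen the spread of a ratio, and their part in this order was not tested. Among 58 hairpins with both arms tested, the SD for miR-221 was 1.52, larger than that of 50 others. Of the 7 with a larger SD the highest was miR-365a at 3.32, and the smallest was miR-151a at 0.27. Each of those 7 had an arm with 2 or fewer counts in some library, and 0.5 was added to counts for these SDs. In the 10 hairpins with at least 10 counts of each arm in every library, a limit set after the values were seen, miR-221 had the largest SD, followed by miR-25 at 1.21 and miR-423 at 0.92. This is a description of these libraries, with no test.

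**Figure D5:**
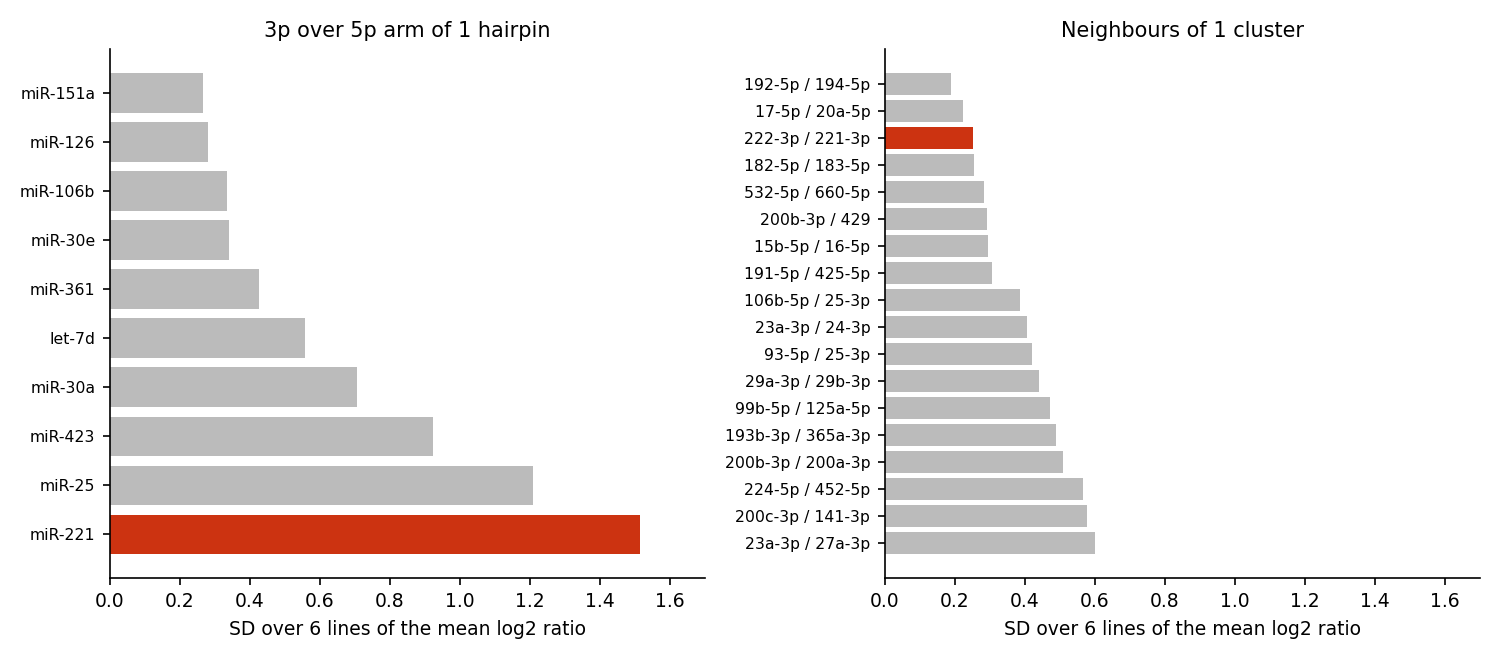
SD over the 6 lines of the mean log2 count ratio, as horizontal bars that start at 0, for the arms of 10 hairpins with at least 10 counts of each arm in every library (left) and for 18 pairs of cluster neighbours (right); miR-221 and the pair of miR-222-3p and miR-221-3p are in red. The miR-221 arms have the longest bar on the left (1.52), and the neighbours have one of the shortest on the right (0.25).

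The less abundant arm of other hairpins was also at its highest median in Hutu80 and Car-1, but not in MDST8. Relative to each hairpin's own mean over lines, the minor arm of miR-221 was at 2.20 on the log2 scale in Hutu80, where the median of the other 57 hairpins was 0.48, 35 were above their mean and 18 had their highest value of the 6 lines. It was at 0.83 in Car-1 (median of the others 0.34, 38 above, 12 highest there) and at 0.79 in MDST8 (-0.12, 25 above, 10 highest there). The part of this shift in the arm ratio of miR-221 was not tested. Here too 0.5 was added to both counts, which weighs most where an arm has few counts, as in shallow libraries. Hutu80 had the shallowest libraries, and the part of the added 0.5 in these medians was not tested. In the 9 other hairpins with at least 10 counts of each arm in every library, the limit set after the values were seen, the median was -0.20 in Hutu80, 0.15 in Car-1 and, at its lowest, -0.35 in MDST8.

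Patterns over lines were compared as Pearson's r of the 6 line means of log2 scaled CPM, over 200 tested miRNAs with a mean of at least 100 CPM. The r-values are descriptions with no p, and all points share the same libraries and scaling. For miR-221-3p the nearest miRNA was miR-222-3p (r = 0.982), and for miR-222-3p it was miR-221-3p. Next for miR-221-3p came let-7f-5p (0.946), miR-21-5p (0.868), let-7e-5p (0.861) and miR-23a-3p (0.850), and for miR-222-3p let-7f-5p (0.921), let-7e-5p (0.847), miR-27a-3p (0.837) and miR-21-5p (0.836). let-7f-5p covered a narrow range, from 47506 ± 15096 CPM in Car-1 to 62484 ± 859 in SW1116, so its r rests on small differences that did not pass across lines (edgeR adjusted p = 0.692). miR-21-5p, raised in many tumours, was at 181328 ± 48967 CPM in MDST8 and 137539 ± 2357 in SW1116, against 43398 ± 3994 in HT55.

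The most opposite patterns to miR-221-3p were those of miR-25-5p (r = -0.957), miR-17-5p (-0.908) and miR-877-5p (-0.891), and to miR-222-3p those of miR-25-5p (-0.953), miR-17-5p (-0.940) and miR-19b-3p (-0.899). miR-17-5p and miR-19b-3p belong to the proliferation-linked miR-17-92 cluster. miR-17-5p was at 541 ± 120 CPM in SW1116 and 559 ± 82.1 in MDST8, against 946 ± 58.5 in Hutu80. Across lines miR-25-5p passed (edgeR adjusted p = 0.00215), but miR-17-5p (0.142), miR-19b-3p (0.112) and miR-877-5p (0.170) did not.

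By the same measure miR-221-5p was far from its own partner. Its r was 0.265 with miR-221-3p, position 76 of 200, and 0.163 with miR-222-3p, position 94. Its nearest miRNAs, named after their values were seen, were miR-30a-5p (0.949), miR-181a-3p (0.917) and miR-125b-2-3p (0.915). At the opposite end were miR-375-3p (-0.970), miR-141-3p (-0.961) and miR-200c-3p (-0.960), all known from epithelial cells.

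The 2 lines with high miR-221-3p and miR-222-3p were called in opposite directions for the miR-200 family, which represses the mesenchymal factors ZEB1 and ZEB2. Of 7 tested members of that family 7 were higher in SW1116 (median difference 1.74, against -0.22 over all tested miRNAs) and 7 were lower in MDST8 (-3.21, against -0.32). SW1116 had 80071 ± 14814 CPM of miR-200c-3p, and MDST8 had 3592 ± 773. In Hutu80, with the lowest 3p levels, 7 of 7 were lower as well (-2.45, against 0.09), and miR-200c-3p was at 7270 ± 1036 CPM. Car-1 had 3 higher and 0 lower (21.1% and 13.5% of all tested miRNAs), HT55 6 higher (13.8%) and RCM-1 7 higher (21.1%). Of all tested miRNAs 17.6% passed as higher in SW1116, and 22.3% passed as lower in MDST8 and 16.7% in Hutu80. The highest median was that of HT55 (2.17), a line with low 3p levels.

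A list of other miRNAs tied to inflammation and to epithelial-mesenchymal transition also differed between the high lines, though not in every member. Of 14 tested members 13 were higher in MDST8 and 1 was lower (median 1.97, against -0.32 over all tested miRNAs). In SW1116 2 were higher and 4 lower (0.08, against -0.22). Of all tested miRNAs 22% passed as higher and 22.3% as lower in MDST8, and 17.6% and 16.7% in SW1116. miR-146a-5p, which NF-kB induces, was at 28747 ± 639 CPM in MDST8 and 1189 ± 559 in SW1116. miR-100-5p was at 63219 ± 7470 CPM in MDST8 and 3733 ± 764 in SW1116. The most abundant member, miR-21-5p, was called higher in both, by 1.25 ± 0.22 in MDST8 (edgeR adjusted p = 4.95e-05) and 0.78 ± 0.23 in SW1116 (0.0116). miR-155-5p fell in both, by 0.69 ± 0.27 in MDST8 (0.0405) and 0.79 ± 0.27 in SW1116 (0.0292). In Hutu80 1 member was higher and 7 lower (23% and 16.7% of all tested miRNAs), and miR-221-5p was high there nonetheless. HT55 had 1 higher and 6 lower (13.8% and 10.4%). Car-1 had 3 higher and 3 lower (21.1% and 13.5%), and RCM-1 2 higher and 4 lower (21.1% and 14.8%). With so few members, the counts in Car-1, RCM-1 and SW1116 say little about the list.

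As a set, the other miRNAs listed from the same chromosome band, Xp11, did not share the pattern of the 3p arms. Of 16 listed, 9 were tested, and none was higher in SW1116 or MDST8, where 1 each was lower. Of all tested miRNAs 17.6% passed as higher and 16.7% as lower in SW1116, and 22% and 22.3% in MDST8. In Hutu80 5 of 9 were higher (23% of all tested miRNAs), with a median of 1.16 against 0.09, and no other line had a call. They included miR-532-5p from the CLCN5 gene, at 3176 ± 113 CPM in Hutu80, 977 ± 75.8 in SW1116 and 984 ± 192 in MDST8, and miR-500a-3p from the same cluster, at 500 ± 79.5 CPM in Hutu80 and 85.3 ± 14.7 in SW1116. miR-98-5p, also at Xp11, passed in no line.

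Blood and serum miRNAs are a check on carry-over from the serum in the medium. Of 10 listed, all had counts and 9 were tested, and their summed level was lowest in the lines with high miR-221-3p and miR-222-3p, at 2257 ± 642 CPM in SW1116 and 2207 ± 346 in MDST8. It was 3102 ± 670 in RCM-1, 4304 ± 606 in Hutu80, 4491 ± 435 in Car-1 and 6095 ± 376 in HT55. In each line this whole list was below the level of miR-221-3p alone, but how much miR-221-3p the serum itself brings was not measured. Of the 9 tested, 1 was higher in HT55 (13.8% of all tested miRNAs) and 1 in RCM-1 (21.1%). As lower, 1 was called in SW1116 (16.7% of all tested miRNAs) and 2 in MDST8 (22.3%), and Car-1 and Hutu80 had no call. These counts are no higher than those shares, so they say little about the list. miR-486-5p, a red-cell miRNA and the most abundant of the list, was 1.2 ± 0.22 higher in HT55 (edgeR adjusted p = 0.000112), and it fell by 0.89 ± 0.25 in MDST8 (0.00553) and by 0.71 ± 0.25 in SW1116 (0.0313). miR-150-5p, a lymphocyte miRNA, was 2.81 ± 0.32 higher in RCM-1 (1.43e-07) and fell by 1.40 ± 0.43 in MDST8 (0.00989). The red-cell miRNA miR-451a passed in no line, with 187 ± 25.5 CPM in SW1116 and 371 ± 39.0 in HT55. Of 5 fibroblast and smooth-muscle miRNAs 2 were tested, and the summed level of the list ran from 151 ± 37.5 CPM in SW1116 to 366 ± 68.0 in Hutu80. The part of either list in the levels of miR-221 and miR-222 was not tested.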

How the data were processed

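Small RNA from vesicles of 6 lines, 2 libraries each, was sequenced. Per the labels' protocols, vesicles were isolated by ultrafiltration and size-exclusion chromatography, and IsoSeek libraries carry unique molecular identifiers. The build is hg38, per the submitters' processing notes. How reads were aligned, counted and collapsed by identifier is not given in the sources used here, so duplicates may inflate counts. The deposited count table holds raw counts of 1636 mature miRNAs, 413 of them 0 throughout. The deposited log2 values equal log2(CPM + 1) of these counts (largest difference 5e-14 over 19632 cells).

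The edgeR (4.0.16) filter filterByExpr kept 318 miRNAs with 99.7% of 3141138 counts. TMM factors ran from 0.642 to 1.46, and a robust quasi-likelihood fit over 12 libraries had 1 mean per line and no block (common biological coefficient of variation 0.304). Within each comparison, p-values were adjusted over the 318 miRNAs and called at 0.05. The SE is the difference divided by the square root of F. Ratios were tested by exact permutation, with no count added. On data simulated for MDST8 against the other lines (296 miRNAs), edgeR called 5 of the 20 miRNAs changed 2-fold, 18 of the 19 changed 4-fold, 19 of the 20 changed 8-fold and 1 of the 237 left as they were. The simulation gave all miRNAs the same dispersion and made the other lines alike, so these rates may not hold for the real comparisons.

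Members, lists and rules were chosen with earlier results of these data known. The text names the members, the 5 most alike and 3 most opposite miRNAs per 3p arm, up to 4 members per list by level, and the extremes of ratio spread; others are said to have been chosen later. Alternatives were RLE factors, library totals, no filter, 100 CPM in 2 libraries, DESeq2 (1.42.0), limma-trend (3.58.1) on the authors' deposited log2 values, a replicate block, each library left out in turn, and for ratios 0.5 added to both counts or ranks.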

Additional observations from a re-analysis of the deposited data

How the results depend on the processing

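miR-221-3p, miR-221-5p and miR-222-3p differed across lines, and the ratio of the miR-221 arms did too, under all alternatives run, while the ratio of miR-222-3p to miR-221-3p passed under none. miR-222-3p in Car-1 against the other lines changed sign, to 0.11 with library totals (adjusted p = 0.69) and 0.11 in limma-trend (0.69). Leaving out a library gave 51 to 108 called miRNAs in HT55 against the other lines, 67 to 120 in Car-1, 49 to 110 in SW1116 and 75 to 127 in RCM-1, the lowest being without a library of that line. A line's lone library is then taken to vary as the rest do. The labels do not say whether libraries with the same replicate number were handled together. Their deviations correlated at -0.11 to 0.25 between lines, over 0.1 in 4 of 15 pairs, which does not settle it. Over the alternatives 7 to 9 pairs of lines were called for miR-221-3p, 10 to 12 for miR-221-5p and 8 to 11 for miR-222-3p. With the replicate block the same 3 counts of called pairs were found (8, 12 and 8 of 15), and the arm ratio had adjusted p = 0.00278 and the neighbour ratio 0.119. Depth limits miR-222-5p most, with 2 counts in 1 library.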
